A study of Homo sapiens with 8 samples.

Results

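The genes described here are 10 zinc finger genes, ZNF254, ZNF430, ZNF493, ZNF107, ZNF91, ZNF43, ZNF85, ZNF708, ZNF431 and ZNF714, of 16557 named genes on the array. They were chosen by their high Ago2 enrichment in these same arrays, so their level of enrichment is given as a description and nothing is supported with it. All 23 probes whose transcript identifier names one of these genes were taken, whatever their values. ZNF107 lies on chromosome 7 and the other 9 genes lie on chromosome 19, where 26 of the 27 protein-coding genes from the first to the last of them are numbered zinc finger genes.

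Zinc finger proteins of this family carry a KRAB domain and a row of C2H2 zinc fingers that bind DNA. The KRAB domain recruits the corepressor TRIM28, which in turn brings in the histone methyltransferase SETDB1 and HP1 proteins, and many family members silence transposable elements. The genes lie side by side in clusters that grew by tandem duplication, and those of 19p12 expanded in primates. Argonaute 2 (Ago2) is the protein that holds a miRNA and binds the mRNAs that the miRNA pairs with. An mRNA that is bound often is therefore more abundant in RNA pulled down with Ago2 than in the total RNA.

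KM-H2, a line derived from Hodgkin lymphoma, was transduced with the empty pMSCV-PIG vector (EV) or with the vector carrying a miR-155 sponge (miR-155-sp, from here on sponge cells), whose transcript holds sites that bind miR-155. Both populations were sorted for GFP, the marker on the vector, and KM-H2 is a line with a high miR-155 level of its own. From each population total RNA (T) and RNA immunoprecipitated with an anti-Ago2 antibody (IP) were hybridised to 2-colour arrays, T in one dye and IP in the other, with the dyes exchanged on another array. The 4 arrays gave 8 channels for 4 samples, 1 sample per group, so there is no biological replicate and no test was possible.

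The ratio of IP to T signal (IP/T) was computed on the log2 scale as the mean of both labellings, and the value of each dye orientation is given as its error, IP in Cy5 first and IP in Cy3 next. A bulk RNA signal cannot tell a change in the number of cells from a change of RNA per cell, and IP/T measures a probe against the other probes on the array. All 8 probes of the Hodgkin line markers TNFRSF8, TRAF1, CCL17, IRF4, CD40 and MIR155HG were detected well above background in every channel. Of the 5 probes for markers of other cells, those of CD3D, ALB and one of CD3E were well above background in at most 1 channel, CD14 was in 6 channels and the other CD3E probe in 4. The share of gene spots well above background lay between 58.9% and 61.9% in Cy3 and between 38.8% and 43.4% in Cy5.

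The miRNA that the sponge binds is miR-155-5p (GRCh38.p14 chr21:25573983-25574006, plus strand, RefSeq), shown because the sponge comparison turns on it, with its seed, bases 2 to 8, in capitals.
hsa-miR-155-5p: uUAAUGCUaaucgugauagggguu

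The 250 bases before the annotated start of these genes in RefSeq were read for words that they share. Whether such words bear on Ago2 enrichment was not tested. The longest word in all 10 was TCCAATCAG, which was in 22 of 29 promoter entries of neighbouring zinc finger genes (75.9%), in 38 of 517 of other numbered zinc finger genes (7.35%) and in 290 of 35116 entries in all (0.826%), both strands searched. The longest words in at least 8 of the 10 were CGGCTTCCGGG, AGGAAGCCCTG and GTCCAATCAGG, which overlaps the first word. They were in 41.4%, 34.5% and 55.2% of the promoters of neighbouring zinc finger genes, in that order, and in 0.168%, 0.148% and 0.194% of all promoters. The words were picked for being shared, so their frequency is a description and says nothing about a factor that may bind. The 100 bases before the start are shown for the genes with the highest ratios, for ZNF493 and ZNF107, whose probes disagree, and for ZNF91, with the shared words in capitals. AGGAAGCCCTG lies upstream of the stretch shown, and ZNF708 holds none of the longer words.
ZNF254, GRCh38.p14 chr19:24087087-24087186, plus strand: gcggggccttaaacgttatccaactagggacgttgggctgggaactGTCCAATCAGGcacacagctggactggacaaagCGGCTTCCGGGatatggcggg
ZNF430, GRCh38.p14 chr19:21020557-21020656, plus strand: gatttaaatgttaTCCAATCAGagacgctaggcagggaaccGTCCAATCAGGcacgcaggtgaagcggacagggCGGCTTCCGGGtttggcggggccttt
ZNF493, GRCh38.p14 chr19:21397033-21397132, plus strand: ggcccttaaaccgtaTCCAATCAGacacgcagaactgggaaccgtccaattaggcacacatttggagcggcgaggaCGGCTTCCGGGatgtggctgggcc
ZNF91, GRCh38.p14 chr19:23395472-23395571, minus strand: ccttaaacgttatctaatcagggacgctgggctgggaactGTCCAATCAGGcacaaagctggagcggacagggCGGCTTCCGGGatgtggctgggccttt
ZNF107, GRCh38.p14 chr7:64666033-64666132, plus strand: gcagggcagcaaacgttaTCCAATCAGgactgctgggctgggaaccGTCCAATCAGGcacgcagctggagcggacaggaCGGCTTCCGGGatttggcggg
In pairwise alignments of the 250 bases the 10 genes were a median of 79.3% identical to each other. The closest pair was ZNF714 and ZNF431 at 92.0%, and the farthest was ZNF708 and ZNF43 at 52.6%. Identity had a median of 76.7% with the neighbouring zinc finger genes and of 50% with other numbered zinc finger genes. The array probes were not aligned to the transcripts, and how far a probe also binds RNA of a similar gene was not tested.

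In EV cells the RNA of these genes was far more abundant in the IP than in total RNA. Of the 23 probes 17, for 9 genes, passed the filters on detection and on agreement between dyes. All 17 had an IP/T of 2 or more in EV cells, against 14.8% of the 17912 retained probes, and all 17 in sponge cells, against 15.6%. An IP/T of 16 or more was seen for 12 of 17 in EV cells, against 0.726% of all probes, and for 13 of 17 in sponge cells, against 0.854%. As the genes were picked on these ratios, nothing is read from these shares.

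The median IP/T of the 17 probes was 20.3 in EV cells and 21.6 in sponge cells (median log2 4.35 and 4.43), while the median log2 IP/T of all retained probes was -0.24 and -0.26. With normexp background correction (offset 50) in place of the scanner's own subtraction, the median log2 IP/T in EV cells fell to 2.63 (loess) or 2.41 (quantile). The probes with an IP/T of 16 or more fell to 4 of 10 retained or 3 of 21. The offset and the set of retained probes differ here along with the background correction, and their parts in the fall were not separated. IP RNA was well above background in all 4 IP channels for all 17 probes. Total RNA was so in all 4 T channels for 11 of them, and for the ZNF107 probe A_23_P45087 neither labelling of EV cells was well above background. The detection filter asks for 4 channels, which the IP alone can supply, so probes dim in total RNA could pass it through a high IP.

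By IP/T in EV cells, the probes of these genes well above background throughout ranked from 2 to 1454 of 13432. Neighbouring zinc finger genes of the same clusters ranked among them, with ZNF681 at 8, ZNF680 at 10 and ZNF100 at 11. The naming of these genes as the most enriched thus does not hold for all their probes, nor for them alone. ZNF254, a KRAB zinc finger gene, had the highest IP/T among probes detected in all 8 channels and named through a RefSeq transcript identifier. The log2 signal of its probe A_32_P144908 in EV cells was 10.51 (Cy3) and 10.83 (Cy5) in total RNA and 15.66 and 16.02 in the IP. In sponge cells it was 10.62 and 10.77 in total RNA and 15.87 and 16.16 in the IP. The IP values lay far above the T values in both dyes and both populations, with no overlap. IP/T in EV cells was 35.9 (45.5 and 28.3 in the dye orientations), and 1 probe whose identifier matched no RefSeq transcript stood above it. A probe of BTG2 lay just below at 35.6, inside the range of the ZNF254 orientations, so first place among named probes is not resolved. In sponge cells the IP/T of the ZNF254 probe was 39.9 (46.4 and 34.2). The other ZNF254 probe, A_24_P15965, gave 20.3 in EV cells (25.2 and 16.4) and 19.3 in sponge cells (18.1 and 20.5), so both probes of the gene were enriched and differed 1.76-fold in EV cells.

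ZNF430 followed closely. The log2 signal of probe A_23_P56304 was 9.79 and 9.67 in EV total RNA and 14.76 and 14.81 in EV IP, and it was 9.91 and 9.84 in sponge total RNA and 14.90 and 14.85 in sponge IP. The labellings of this probe lay within 1.08-fold of each other in all 4 samples. Its IP/T was 33.2 in EV cells (32.4 and 34.0) and 32.0 in sponge cells (30.8 and 33.3), and the EV value could not be separated from that of ZNF254 by the dye orientations. Another ZNF430 probe, A_23_P56298, was left out because its labellings of sponge total RNA lay 2.59-fold apart, and gave an IP/T of 21.6 in EV cells.

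**Figure D1:**
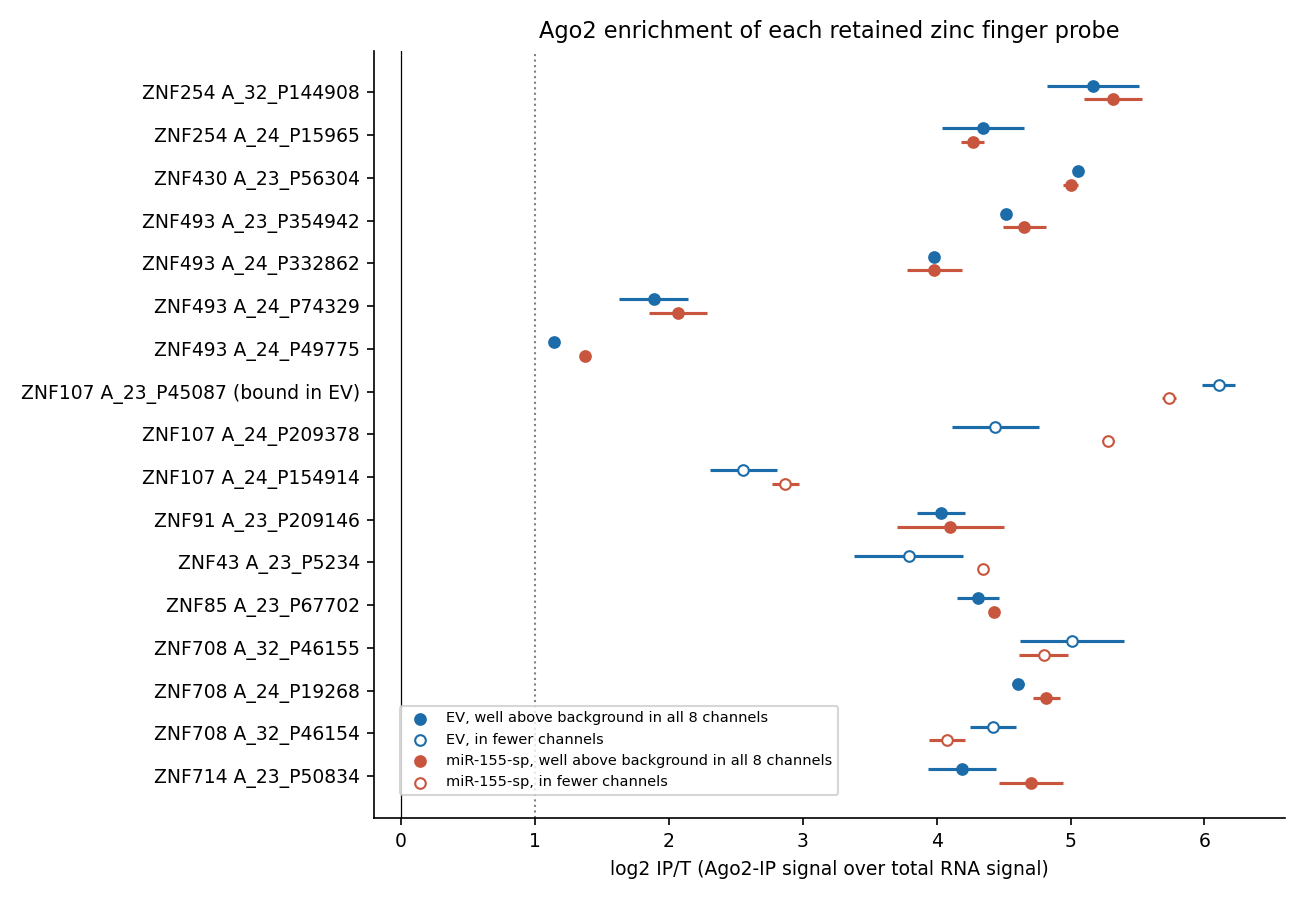
Log2 IP/T (horizontal axis) of the 17 retained probes of the 10 zinc finger genes in EV (blue) and sponge cells (red). Points are the mean of both labellings, lines span both dye orientations, open points mark probes that were not well above background in all 8 channels, and the dotted line marks an IP/T of 2. Most probes lie between 3.79 and 5.17 in EV cells, the ZNF493 probes A_24_P74329 and A_24_P49775 lie at 1.89 and 1.14, and the ZNF107 probes lie from 2.55 upwards; the row marked as a bound is ZNF107 A_23_P45087, drawn as measured at 6.11 with a bound of at least 5.43.

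ZNF708 probe A_24_P19268 had log2 signals of 10.08 and 10.18 in EV total RNA and of 14.75 and 14.74 in EV IP, with 10.26 and 10.39 in sponge total RNA and 15.11 and 15.18 in sponge IP. Its IP/T was 24.4 in EV cells (25.1 and 23.7) and 28.2 in sponge cells (30.2 and 26.3). The retained ZNF708 probes A_32_P46155 and A_32_P46154, whose total RNA was well above background in 1 of 2 labellings of each population, gave 32.3 and 21.4 in EV cells. The 3 probes of this gene thus lay within 1.51-fold. The remaining ZNF708 probe, A_24_P680908, was not well above background in any of the 8 channels and gives no ratio.

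ZNF85, ZNF714, ZNF91 and ZNF43 had 1 retained probe each. ZNF85, probe A_23_P67702, had log2 signals of 8.60 and 8.61 in EV total RNA and of 12.76 and 13.07 in EV IP, and an IP/T of 19.8 (22.1 and 17.8) in EV and 21.6 (22.1 and 21.1) in sponge cells. ZNF714, probe A_23_P50834, had 8.85 and 9.20 in EV total RNA and 13.14 and 13.30 in EV IP, and an IP/T of 18.3 (21.8 and 15.3) in EV and 26.1 (30.8 and 22.1) in sponge cells. In each of these genes the IP values did not overlap with the T values.

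ZNF91, whose protein is known for silencing SVA retrotransposons, had log2 signals of 7.26 and 7.63 in EV total RNA and of 11.48 and 11.47 in EV IP with probe A_23_P209146. In sponge cells these were 7.17 and 7.92 in total RNA and 11.62 and 11.67 in the IP. Its IP/T was 16.4 in EV cells (18.5 and 14.5) and 17.2 in sponge cells (22.6 and 13.0). Its dye orientations lay apart in sponge cells because the total RNA labellings differed 1.68-fold. ZNF43, probe A_23_P5234, had total RNA near background, with log2 signals of 5.38 and 5.09 in EV total RNA and of 9.29 and 8.77 in EV IP. Its IP/T was 13.8 in EV cells (10.46 and 18.3) and 20.3 in sponge cells (20.4 and 20.3), with total RNA well above background in 1 of 2 labellings of each population.

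Ordered by IP/T in EV cells, the 11 probes that were well above background in all 8 channels ran from ZNF254 and ZNF430 through ZNF708, ZNF493, the other ZNF254 probe, ZNF85, ZNF714, ZNF91 and the next ZNF493 probe to the other ZNF493 probes. Of the 10 neighbouring pairs in this order, 6 overlapped in the range of their dye orientations in EV cells. In sponge cells, ordered by their own IP/T, 4 of 10 did. The order of the overlapping pairs, which include ZNF254 and ZNF430 in EV cells, is thus not resolved. Both orientations come from 1 RNA, so their range does not measure the spread of repeated pulldowns. Log2 IP/T in EV and in sponge cells correlated over the 17 probes (r = 0.97, also without the ZNF107 probe that gives a bound), which share probe and normalisation in both populations.

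**Figure D2:**
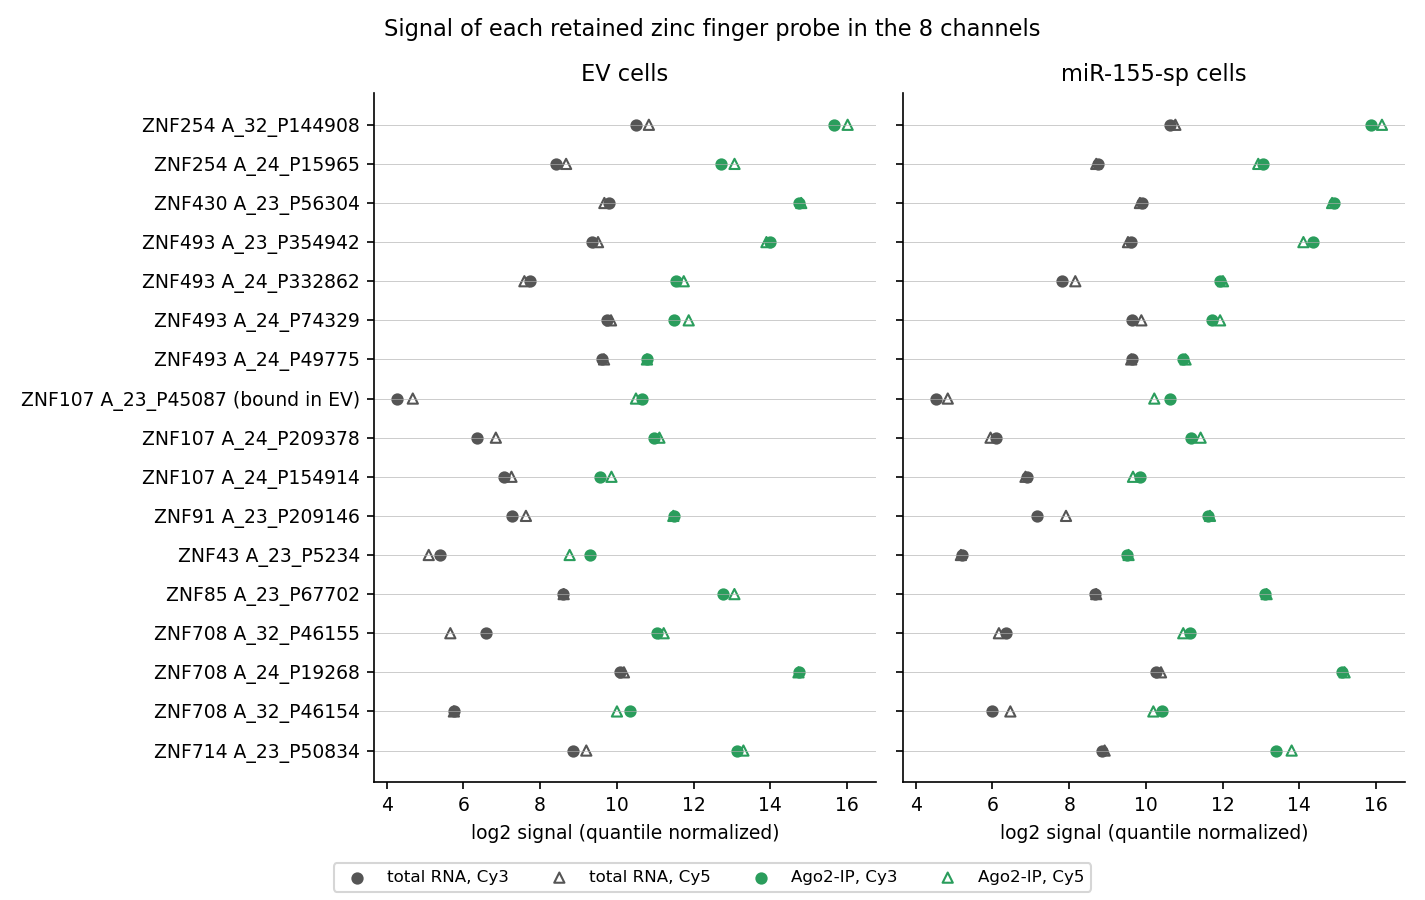
Quantile-normalised log2 signal (horizontal axis) of the 17 retained probes in total RNA (grey) and Ago2-IP (green), Cy3 as filled circles and Cy5 as open triangles, for EV (left) and sponge cells (right). Within each row the green marks lie to the right of the grey marks, most closely for ZNF493 A_24_P49775 (9.62 and 9.67 against 10.79 and 10.78 in EV cells); signals of different rows are not comparable.

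The probes of ZNF493 fell into separate groups by the transcript they were designed to. Probes A_23_P354942 and A_24_P332862, both designed to NM_175910, had an IP/T of 22.9 (23.5 and 22.3) and 15.8 (16.03 and 15.6) in EV cells. Probes A_24_P74329 and A_24_P49775, both designed to NM_001076678, had 3.70 (4.42 and 3.098) and 2.21 (2.24 and 2.18). The mean was 19.03 for the former transcript and 2.86 for the latter in EV cells, and 19.97 against 3.29 in sponge cells, with no overlap of any orientation.

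All 4 retained ZNF493 probes were well above background in every channel, so none of these ratios is a bound. The log2 signal of A_23_P354942 was 9.35 and 9.51 in EV total RNA and 13.99 and 13.90 in EV IP. That of A_24_P49775 was 9.62 and 9.67 in EV total RNA and 10.79 and 10.78 in EV IP. Their log2 IP/T was 4.52 and 1.14, a gap of 10.4-fold in EV cells and 9.74-fold in sponge cells. The remaining ZNF493 probe, A_32_P109036, also designed to NM_175910, was left out because its labellings lay 5.63-fold apart in sponge total RNA. Neither labelling of its EV total RNA was well above background, and its IP/T there was at least 11.3-fold.

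ZNF107, the gene on chromosome 7, also had probes that lay apart, 3 of them designed to 1 transcript. Probe A_23_P45087 had log2 signals of 4.27 and 4.68 in EV total RNA, not well above background, and of 10.66 and 10.498 in EV IP, so its IP/T was at least 43.2-fold (69.0 as measured). Probe A_24_P209378 had 21.7 (27.2 and 17.3) and probe A_24_P154914 had 5.88 (6.99 and 4.94). The probes thus spanned at least 7.35-fold in EV cells, a bound that does not place ZNF107 above or below the 10.4-fold of ZNF493. In sponge cells the 3 probes gave 53.3, 38.8 and 7.31, the first with total RNA well above background in 1 of 2 labellings. None of the ZNF107 probes was well above background in all 8 channels, whereas all 4 retained ZNF493 probes were.

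Of 2766 genes with at least 2 retained probes, the median range between probes in EV cells was 1.27-fold as measured, and 0.398% had a range at least as wide as ZNF493. The range sets the highest probe against the lowest, so it can widen with the number of probes, 4 for ZNF493. Among neighbouring zinc finger genes with at least 2 retained probes it ran from 1.21-fold (ZNF626) to 4.90-fold (ZNF273).

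Of the 6 probes left out, 2 were detected in under 4 channels and the other 4 had labellings over 2-fold apart. ZNF431 had no retained probe. Its probe A_23_P39441 had labellings of EV total RNA 2.03-fold apart, just past the limit of 2, and an IP/T of 12.6 in EV (17.8 and 8.89) and 15.4 in sponge cells (18.9 and 12.6). The other ZNF431 probe, A_24_P177568, was well above background in 2 channels. The remaining ZNF714 probe, A_23_P50825, gave 4.64 in EV (6.20 and 3.47) and 11.1 in sponge cells (8.10 and 15.3).

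The sponge comparison asked whether IP/T differed between cells with the miR-155 sponge and EV cells; how much miR-155 the sponge captured was not measured here. None of the 16 probes measured in both populations changed 2-fold in IP/T, against 1.45% of all retained probes, and their log2 change of sponge minus EV ran from -0.34 to 0.84. The remaining probe, ZNF107 A_23_P45087, has only a bound in EV cells, so its log2 change was at most 0.30 and its direction is not known. The median log2 change of the 17 probes as measured was 0.14 (1.101-fold), and it was 0.14 also without that probe. Over all retained probes the median was -0.00248. It was 0.22 for neighbouring zinc finger genes and 0.28 for KRAB corepressor genes (TRIM28 and other silencing genes, among them subunits of the HUSH silencing complex). Other numbered zinc finger genes had 0.17 on chromosome 19 and -0.0042 on other chromosomes. A shift of this size was thus not particular to the 10 genes. The median of the 17 was 0.03 in the orientation with Cy5-labelled IP and 0.22 in that with Cy3-labelled IP (0.086 and 0.22 without the ZNF107 probe), so its size depended on the orientation.

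Of the 16 probes measured in both populations, IP/T was higher in sponge cells for 12 and lower for 4. It was higher in both orientations for 7 of 16, against 30.6% of all probes, lower in both for 3 of 16, against 30.3%, and split for 6. With channels scaled to 1 median rather than quantile-normalised, 11 of 17 as measured were higher and 1 lower in both orientations. With normexp these were 6 and 0 of 10 probes (loess) or 14 and 3 of 21 (quantile). The share of all retained probes higher in both was 35.6% with 1 median, and 25.1% (loess) or 25.5% (quantile) with normexp. The orientations themselves were weakly related over the 17 probes as measured (r = 0.30, and 0.23 without the ZNF107 probe), which share the 4 arrays.

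The largest change was that of ZNF107 probe A_24_P209378, with a log2 change of 0.84 (0.56 and 1.12), where total RNA was well above background in 1 of 2 labellings of each population. ZNF107 probe A_24_P154914 changed by 0.32 (-0.04 and 0.67), with orientations on opposite sides of 0. The lowest changes were those of the ZNF708 probes A_32_P46154 and A_32_P46155, -0.34 and -0.21, again with total RNA well above background in 1 of 2 labellings, while ZNF708 A_24_P19268, well above background throughout, changed by 0.21. ZNF714 A_23_P50834, with 0.51 (0.50 and 0.53), was the largest change among probes well above background throughout, and its orientations differed little. Its log2 signal changed by -0.14 in total RNA and by 0.38 in the IP.

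Among the other genes ZNF43 changed by 0.55 (0.96 and 0.14). ZNF254 changed by 0.15 (0.03 and 0.27) and -0.08 (-0.47 and 0.32) with its probes, and ZNF430 by -0.05 (-0.08 and -0.03). The low ZNF493 probes A_24_P49775 and A_24_P74329 changed by 0.23 (0.23 and 0.23) and 0.18 (0.15 and 0.22), higher in both orientations. The high ZNF493 probes A_23_P354942 and A_24_P332862 changed by 0.14 (-0.06 and 0.34) and 0.00093 (0.19 and -0.19), and neither kept a direction.

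**Figure D3:**
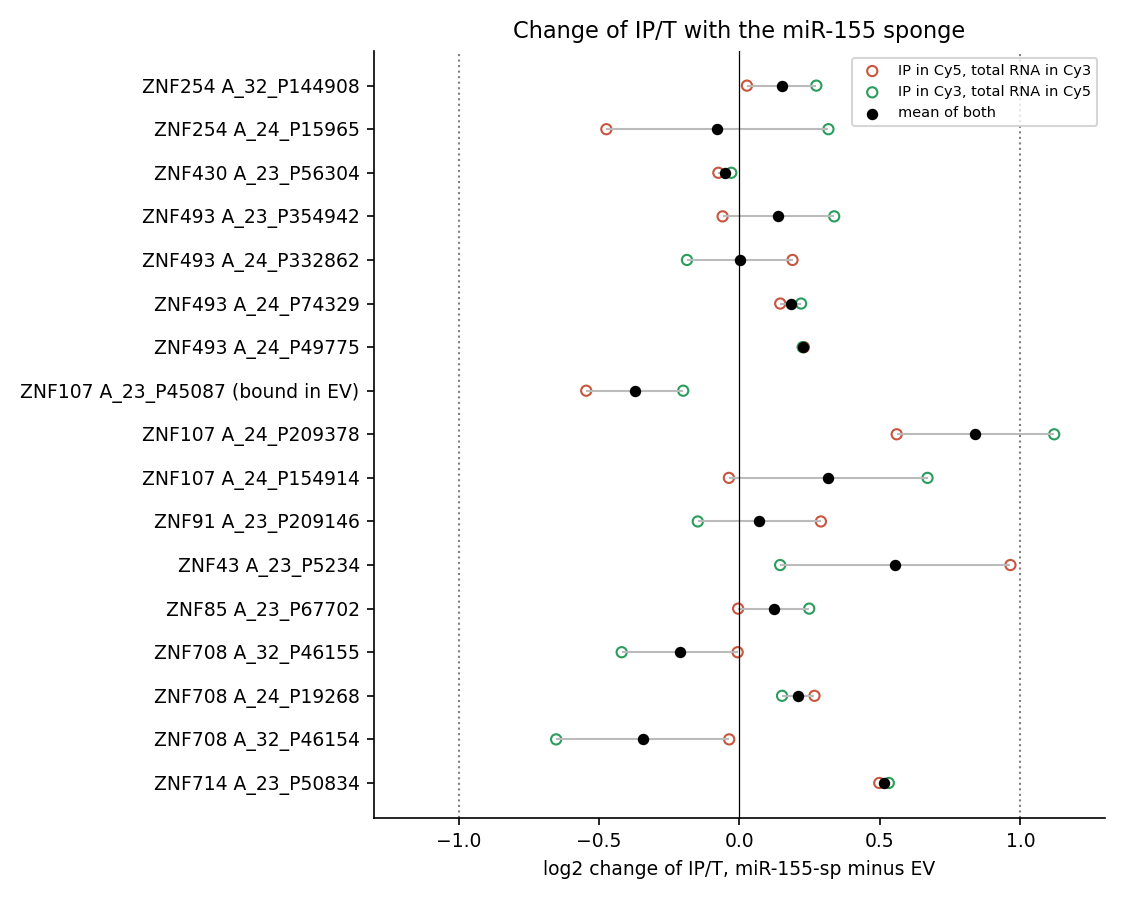
Log2 change of IP/T, sponge minus EV (horizontal axis), of the 17 retained probes. Open circles are the dye orientations (red, IP in Cy5; green, IP in Cy3), black points their mean, and dotted lines mark a 2-fold change. The means run from -0.34 (ZNF708 A_32_P46154) to 0.84 (ZNF107 A_24_P209378) over the 16 probes measured in both populations, the row marked as a bound (drawn as measured) has no known direction, and for 6 probes the orientations lie on opposite sides of 0.

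The median log2 signal change was 0.17 in the IP and 0.10 in total RNA. The IP signal was higher in sponge cells in both labellings for 13 of 17 probes, against 30.5% of all retained probes. This count was 13 of 17 also with channels scaled to 1 median, against 33.8% of all retained probes. With normexp it was 5 of 10 against 27.0% (loess) or 14 of 21 against 26.6% (quantile). With quantile normalisation and no normexp, it was 8 of 20 for neighbouring zinc finger genes and 9 of 19 for KRAB corepressor genes. For other numbered zinc finger genes it was 50 of 94 on chromosome 19 and 59 of 169 on other chromosomes. No total RNA signal of the 16 probes measured in both populations changed 2-fold, against 0.363% of all probes. The largest total RNA changes were -0.57 for ZNF107 A_24_P209378 and 0.47 for ZNF708 A_32_P46154, both with total RNA well above background in 1 of 2 labellings of each population.

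Neighbouring zinc finger genes of the same clusters, a list of 35 genes, were on the array with 15 genes and 30 probes, of which 20 probes for 13 genes were retained. All 20 had an IP/T of 2 or more in EV cells, against 14.8% of all retained probes, and in sponge cells, against 15.6%. In EV cells 10 had at least 16 as measured, against 0.726%. Among them was the ZNF273 probe A_23_P317919, whose total RNA was not well above background and which passed the detection filter through its IP channels alone. All 11 neighbour probes detected in every channel also had an IP/T of 2 or more in both populations. The median IP/T of the 20 in EV cells was 16.2, beside 20.3 for the 10 genes. Restricted to the 11 probes of each set that were detected in every channel, it was 23.6 beside 19.8. Which set had the higher median thus depended on the dim probes. Of the 20 neighbour probes, those of 19p12 had a median of 12.9 and those of the chromosome 7 cluster that holds ZNF107 had 20.8. The highest were ZNF681 at 31.8, ZNF680 at 30.5 and ZNF100 at 29.2, and the lowest were probes of ZNF138 at 4.15, ZNF257 at 4.70 and ZNF626 at 5.59. With the sponge their log2 IP/T changed by a median of 0.22, which was 0.070 in the former orientation (Cy5-labelled IP) and 0.33 in the latter, so here too the size depended on the orientation.

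Numbered zinc finger genes outside these clusters had lower ratios. Of their 263 retained probes 73 (27.8%) had an IP/T of 2 or more in EV cells, with a median of 1.16. The median was 1.36 for those elsewhere on chromosome 19, of which none of 94 probes reached 16, and 1.06 on other chromosomes, of which 5 of 169 probes did. Of the 100 retained probes with the highest IP/T in EV cells 70 were named, and these held 10 probes of the 10 genes and 9 of their neighbours.

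The KRAB corepressor genes had ratios near 1 for the most part. Of 19 retained probes for 11 genes, 1 had an IP/T of 2 or more in EV cells and 2 in sponge cells, and the median in EV cells was 1.14. The highest was probe A_23_P6651 of TASOR, a subunit of the HUSH silencing complex, at 2.82 (3.61 and 2.19), with total RNA well above background in 1 of 2 labellings, while the other TASOR probe gave 1.18 (0.933 and 1.49). Next came ATF7IP, a partner of SETDB1, at 1.79 and CBX3, an HP1 protein, at 1.70. The lowest were CHD3, a chromatin remodeller, at 0.341, PPHLN1 at 0.565 and a MORC2 probe at 0.676. The CHD3 probe A_23_P21640, well above background in all 8 channels, had 0.729 in sponge cells. Its log2 change of 1.097 (1.47 and 0.72 in the dye orientations) was the only 2-fold change among the 19 probes. Its log2 signal changed by 1.06 in the IP and by -0.03 in total RNA, and the cause was not tested. TRIM28 itself had 1.13 (1.304 and 0.98) in EV cells, and its probe was well above background in all 8 channels.

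**Figure D4:**
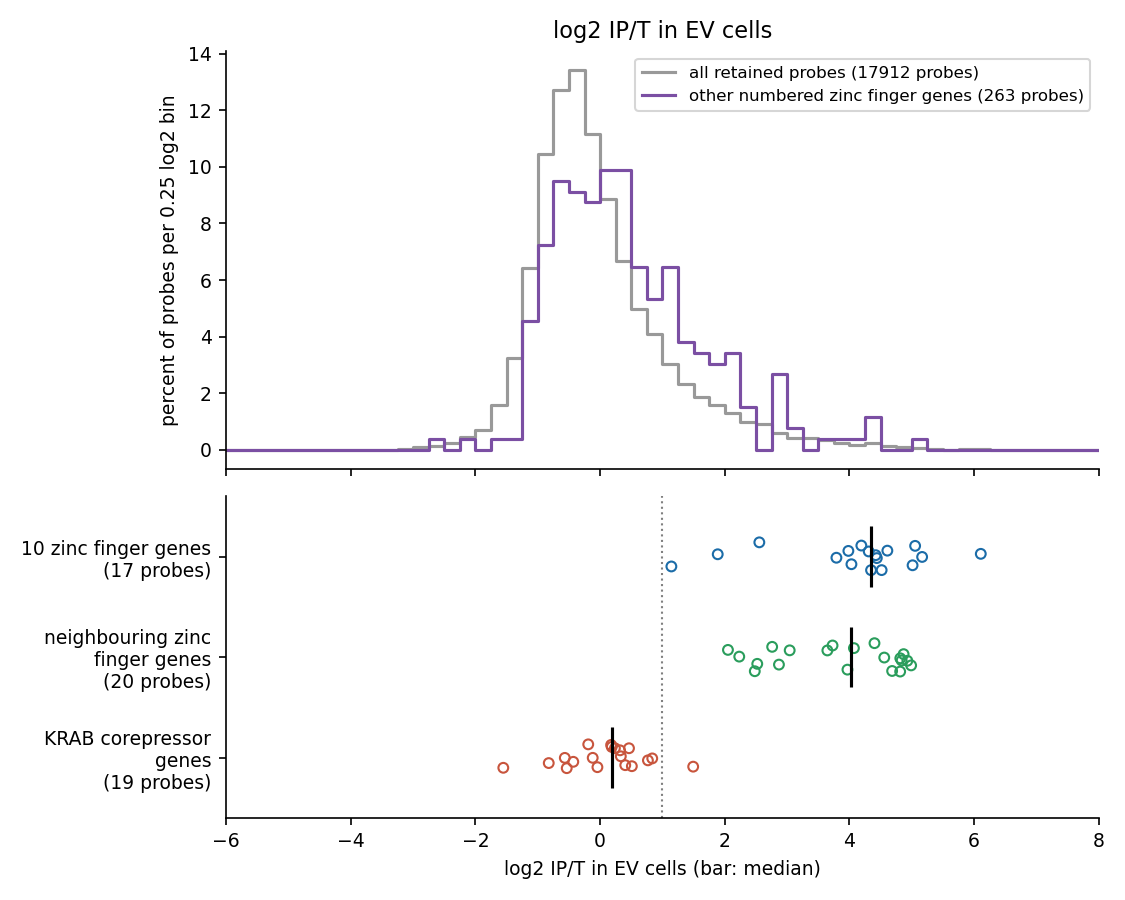
Log2 IP/T in EV cells (horizontal axis). The upper panel gives the percent of probes per bin of 0.25 for all 17912 retained probes (grey) and for 263 probes of other numbered zinc finger genes (purple), and the lower panel gives single probes of the 10 zinc finger genes, their neighbours and the KRAB corepressor genes, with bars at the medians of 4.35, 4.02 and 0.19 and a dotted line at an IP/T of 2.

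The named probes outside the 10 genes whose profile over the 4 samples was closest to the median profile of the 17 probes were those of CCNJ, GIT2, BTBD7, ZFYVE26 and PKN2, by Euclidean distance of the centred log2 signals (0.121 to 0.219). Their IP/T in EV cells was 19.5, 20.3, 17.3, 20.2 and 20.03, in that order. They lie on chromosomes 10, 12, 14, 14 and 1, and none is a zinc finger gene of the clusters described.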

How the data were processed

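RNA of KM-H2 cells (EV or sponge, total or Ago2-IP) had been labelled with Cy3 (replicate 1) and Cy5 (replicate 2) and hybridised to 4 arrays. Both labellings come from 1 RNA and were counted as 1 sample, so no p-value was computed. The authors obtained the intensity of each spot from Agilent Feature Extraction (version 10.7.3.1 per the file headers, 10.5.1.1 per the submitters' processing notes), which subtracted background and normalised dyes. The deposited flags mark spots well above background, saturated (none) and outlying. The authors also deposited log2 values for 16065 probes, quantile-normalised and filtered; these hold the same 17 probes and differ from the values computed here by a median of 0.00056. The scale, centring and direction of these columns were settled by this comparison.

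Control and outlier spots were dropped, spots of a probe averaged, and log2 signals of 40981 probes quantile-normalised over the 8 channels. Probes were retained if well above background in at least 4 channels and with labellings within 2-fold in all 4 samples, which kept 17912. The 4 IP channels alone can meet this detection rule. Probes were named through RefSeq transcript identifiers in a gene table of GRCh38.p14 (23958 of 41000 matched). The arrays were designed on an older build, so no probe coordinates are given. Where neither labelling of a total RNA was well above background, the ratio is a bound against the lowest signal well above background in each channel. Processed signals near background can inflate ratios, and quantile normalisation removes any overall difference between fractions. No count depth exists for arrays, and 1 sample per group limits the precision.

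The members and lists were chosen with earlier results of these data known. Named were all probes of the 10 genes, the 3 highest and 3 lowest probes of the neighbour and corepressor lists, and the 5 nearest profiles. TRIM28, BTG2 and the markers were named besides. Alternatives were a common median, normexp (offset 50, limma 3.58.1, R 4.3.3) with loess or quantile, the deposited values, other filters, other averages and single labellings or orientations. Other steps used Python 3.11.15, numpy 2.4.6, pandas 2.3.3 and Biopython 1.88. The steps were tested on simulated data. The number of zinc fingers per protein was planned but not analysed here, as protein sequences were not used.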

Additional observations from a re-analysis of the deposited data

Results flagged for a closer look

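One probe of the KRAB corepressor list, A_23_P204967 of MPHOSPH8, a subunit of the HUSH silencing complex, had an IP/T above 1 in both dye orientations in EV cells (1.52 and 1.15) and below 1 in both in miR-155-sp cells (0.929 and 0.969). Its log2 IP/T changed by -0.48, and this difference was not tested. The largest change on this list was that of CHD3, given above. The other MPHOSPH8 probes, A_24_P287403 and A_24_P188183, changed by 0.44 and 0.42.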

How the results depend on the processing

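Of the 603 values of single probes under other settings, 446 moved by less than the spread of the dye orientations. Part of this count was fixed in advance. A single orientation always lies within that spread of the mean, and the deposited values are nearly the values used here. The count is thus no measure of stability. Among the values of at least 1 in size on the log2 scale, those that turned in direction were the dim ZNF431 probe A_24_P177568, whose log2 IP/T in miR-155-sp cells was -1.03 with Cy5 alone against 1.09, and ZNF714 A_23_P50825, whose change was -0.0085 with normexp and loess against 1.26. In EV cells an IP/T of 2 or more held under every setting for 16 of 17 probes, and ZNF493 A_24_P49775 was lowest at log2 0.93. Smaller changes turned more often: of the 16 probes measured in both populations, the change of IP/T was higher under every setting in 7 and changed sign between settings in 9, such as ZNF430 A_23_P56304, at -0.05 and at 0.15 with a common median. Leaving out the ZNF107 probe that gives a bound, and settings for the IP signal, the lists and the threshold of 16 were chosen after seeing the data. The cause of these shifts was not tested.

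Probes with an IP/T of at least 2, 17 in both populations, became 9 of 10 with normexp and loess, 11 of 11 with detection in all channels and 9 of 9 as gene means, each with fewer probes retained. With normexp and quantile, which retained more probes, the count was 19 of 21 in EV and 21 of 21 in miR-155-sp cells. Those with at least 16, 12 in EV and 13 in miR-155-sp cells, became 4 and 4 with normexp and loess, 3 and 4 with normexp and quantile, and 7 and 8 as gene means, and 8 in miR-155-sp cells with detection in all channels. The median log2 IP/T became 2.63 in EV and 2.87 in miR-155-sp cells with normexp and loess, and 2.41 and 2.50 with normexp and quantile. In miR-155-sp cells it was 4.35 without the agreement filter and 4.57 as gene means, against 4.43.

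The median change of IP/T was 0.31 with a common median, where that of all probes was 0.06, and lay between 0.03 and 0.23 with single labellings. That of neighbouring genes, 0.22, was 0.099 and 0.11 with normexp. That of total RNA, 0.10, was 0.057 with a common median, 0.024 with normexp and loess, -0.0041 with normexp and quantile, 0.089 without the agreement filter, with labellings within 1.5-fold or with arithmetic means, and 0.077 to 0.081 in single labellings, and 0.077 and 0.081 in single orientations. That of the IP signal, 0.17, was 0.29 with a common median, 0.21 with detection in all channels or labellings within 1.5-fold, and 0.23 with IP in Cy3 (0.19 to 0.23 with single labellings).

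The median log2 IP/T of neighbouring genes, 4.02, was 3.78 with a common median, 2.33 and 2.18 with normexp, 4.56 with detection in all channels, 3.85 without that filter, 3.90 without the agreement filter, 4.07 within 1.5-fold, 4.08 with IP in Cy5 and 3.89 to 4.29 with single labellings. That of corepressor genes, 0.19, was 0.12 with normexp and quantile and 0.10 with IP in Cy5. Their change, 0.28, was 0.036 and 0.10 with normexp, 0.071 within 1.5-fold, 0.085 with IP in Cy5 and 0.070 to 0.32 with single labellings. No paired analysis was possible because replicate numbers mark the dye of 1 RNA and each group holds 1 sample.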
